A study of Mus musculus with 16 samples.

Results

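The glycogen metabolism genes described here are 10 listed genes of glycogen synthesis and breakdown: *Ugp2*, *Gyg*, *Gys1*, *Gys2*, *Gbe1*, *Gsk3a*, *Gsk3b*, *Ppp1r3c*, *Pygb* and *Pygl*. All 10 were found among the 49066 gene symbols measured by RNA sequencing of brown adipose tissue (BAT). The members were chosen by their role, with the TPM of KO and WT mice in these libraries already known, so their levels and fold changes are given as a description, with no test. The 16 libraries came from 4 WT and 4 KO males and 4 WT and 4 KO females on the C57BL6/J background, 18 weeks old and fed a high-fat diet (HFD, 60% kcal from fat) for 12 weeks from 6 weeks of age. WT mice were homozygous for the floxed *Gdf15* allele (*Gdf15* fl/fl) and carried no Cre. KO mice, whose label is GDF15 KO and which the study calls GDF15 BKO, were *Gdf15* fl/fl with the transgene Tg(Ucp1-cre)1Evdr, in which the *Ucp1* promoter drives Cre in thermogenic adipocytes. Other cells of the tissue keep the allele intact, and the WT mice lack the transgene itself, so effects of the transgene and of the deletion cannot be told apart. The comparisons ask how the tissue differs with the loss of *Gdf15* in each sex and whether that difference depends on sex.

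Glycogen is a branched polymer of glucose that cells store and break down as a short-term reserve. UGP2 makes the glucose donor UDP-glucose, glycogenin (GYG) starts the chain, glycogen synthase (GYS1 and, in liver, GYS2) extends it and GBE1 adds branches. The kinases GSK3A and GSK3B phosphorylate and inhibit glycogen synthase, PPP1R3C brings protein phosphatase 1 to glycogen, where it activates the synthase, and the phosphorylases PYGB and PYGL release glucose units. Brown adipocytes hold glycogen and take up large amounts of glucose when stimulated.

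Values are TPM (reads per length of transcript), expressed as parts of 1000000 for the library, so levels can be compared between genes. The deposited values come without read numbers, so the depth is unknown, and no counting interval or detection limit can be given. Fold changes were computed from log2(TPM + 0.5), which understates the change of genes with low TPM. Bulk tissue was measured, so fewer cells of a type and less RNA per cell cannot be told apart.

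*Gdf15* (ENSMUSG00000038508, chromosome 8), the deleted gene, had 0.368, 0.690, 1.55 and 3.81 TPM in male WT and 0.0915, 0.0801, 0.255 and 0.272 TPM in male KO mice. In females it had 0.0622, 0.311, 0.170 and 0.290 TPM in WT and 0, 0, 0.0794 and 0 TPM in KO mice. The male groups did not overlap, whereas female KO replicate 3 lay above female WT replicate 1, so at these levels the label of that library is not separated by *Gdf15*. The brown adipocyte markers were all expressed (10 of 10 with a mean of at least 1 TPM), and *Ucp1*, the most abundant of them, ranged from 2352 to 4423 TPM over the 16 libraries.

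Several libraries stood apart. In female WT replicate 4, 17.7% of the TPM lay on transcripts without a match in the annotation. In the other 15 libraries this share was 0.333 to 0.48%. The share of the mitochondrial genome was lowest in the same library, at 34.5%, and highest in male WT replicate 1, at 59.8%. A larger share of either kind lowers the TPM of all other genes in a library. The unmatched share alone therefore does not show that the other genes were lowered most in female WT replicate 4. Female KO replicates 1 and 4 had the lowest TPM of *Gbe1*, *Pygl* and *Pygb* of the female libraries. Replicates 1 and 4 were singled out after the values were seen, and the members' female fold changes are given with and without them. Library names begin with a prefix whose meaning is not stated: 5, 5, 9 and 9 in male WT, 10, 9, 9 and 9 in male KO, 10, 8b, 8b and 8b in female WT, and 10, 5, 8b and 9 in female KO mice, in the order of replicates 1 to 4.

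In the annotation, *Ugp2* is ENSMUSG00000001891 on chromosome 11, *Gyg* is ENSMUSG00000019528 on chromosome 3, *Gys1* is ENSMUSG00000003865 on chromosome 7, *Gys2* is ENSMUSG00000030244 on chromosome 6 and *Gbe1* is ENSMUSG00000022707 on chromosome 16. Among the regulators and phosphorylases, *Gsk3a* is ENSMUSG00000057177 on chromosome 7, *Gsk3b* is ENSMUSG00000022812 on chromosome 16, *Ppp1r3c* is ENSMUSG00000067279 on chromosome 19, *Pygb* is ENSMUSG00000033059 on chromosome 2 and *Pygl* is ENSMUSG00000021069 on chromosome 12. All 10 passed the minimum mean of 1 TPM in each comparison, and each value is the sum over the transcripts of 1 gene.

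*Pygl* was the most abundant member, with a mean of 209 TPM over the 16 libraries, and *Gsk3b* the least, with 6.26 TPM. *Gbe1* (88.4 TPM) and *Gys1* (72 TPM) followed *Pygl*, then *Gyg* (67.1 TPM), *Ugp2* (64.8 TPM), *Gsk3a* (46.7 TPM), *Gys2* (38.6 TPM), *Ppp1r3c* (36.8 TPM) and *Pygb* (32.2 TPM). The ranges of neighbours in this order overlapped, except that every library of *Gsk3b* (at most 9.55 TPM) lay below every library of *Pygb* (at least 17.4 TPM). The spread over libraries differed between members: *Gsk3a* ranged 1.53-fold and *Gys1* 1.56-fold from the lowest to the highest library, *Gbe1* 4.15-fold and *Pygl* 7.86-fold. Both synthases were present, and the liver form *Gys2* was at 26.3 to 60 TPM. Markers of hepatocytes summed to 1.64 to 32.8 TPM per library (3 of 5 had a mean of at least 1 TPM, *Apoa2* was the most abundant at 1.22 to 10.5 TPM, and *Ttr*, *Apoa1* and *Fgb* were listed at 0 in at least 1 library).

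**Figure D1:**
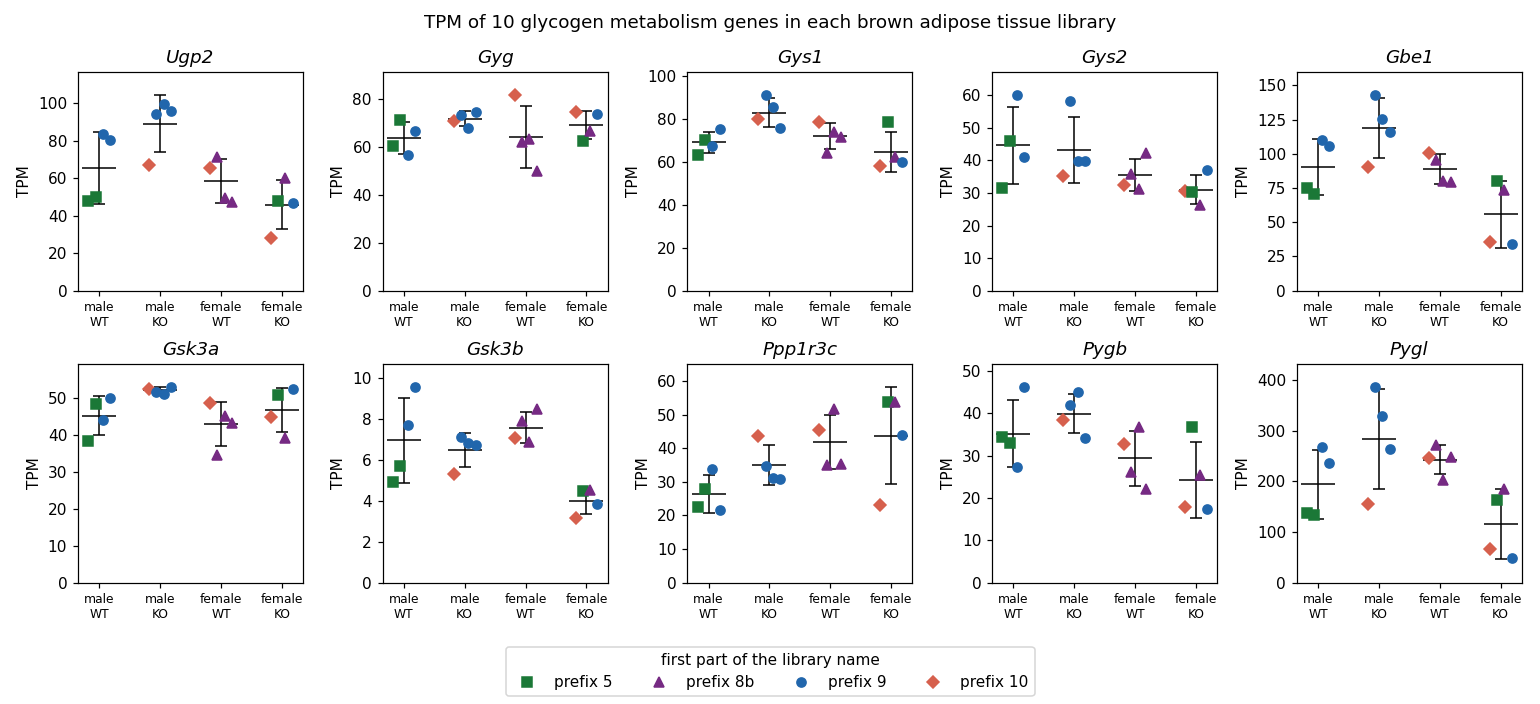
TPM (vertical axes, from 0) of the 10 glycogen metabolism genes in each library of the 4 groups, with points for libraries, shaped and coloured by the first part of the library name, and lines with bars for the group mean ± SD (n = 4). *Gsk3b* was lower in each female KO library than in each female WT library, and *Pygl* and *Gbe1* were lowest in female KO replicates 1 and 4.

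The first question is how the tissue of male mice differs with the loss of *Gdf15*. In males, 8 of the 10 members had a higher mean log2(TPM + 0.5) in KO than in WT mice and 2 a lower one, with a median log2 fold change of 0.23, beside 0.16 over all 12176 genes tested, of which 9725 were higher. Median-of-ratios scaling, which shifts the median of all genes to 0.00, gave a median over the members of 0.06, with 8 members still higher. In *Gys1*, glycogen synthase, male WT mice had 63.2, 70.3, 67.2 and 75.1 TPM and male KO mice 79.8, 90.9, 85.2 and 75.5 TPM, for a log2 fold change of 0.26 (SE 0.10). *Gsk3a*, a kinase that inhibits it, had 38.4, 48.5, 43.9 and 50.1 TPM in male WT and 52.5, 51.7, 51 and 52.8 TPM in male KO mice, for a log2 fold change of 0.21 (SE 0.10). *Gys1* and *Gsk3a* were the 2 members in which each male KO library lay above each male WT library, a pattern met by 9.55% of all genes tested. No member had each male KO library below each male WT library, as 0.673% of all genes did. After either rescaling the KO and WT values of both genes overlapped, and with median-of-ratios scaling their log2 fold changes were 0.09 and 0.03.

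The largest male fold changes among the members were those of *Pygl*, *Ugp2*, *Ppp1r3c* and *Gbe1*, and each had overlapping groups. Their values below are not rescaled and stand beside the median of 0.16 over all genes. Over all alternative settings, the rescalings among them, their lowest log2 fold changes were 0.36, 0.23, 0.24 and 0.23. *Pygl*, the liver-type phosphorylase, had 138, 133, 269 and 236 TPM in male WT and 155, 386, 329.6 and 265 TPM in male KO mice, for a log2 fold change of 0.54 (SE 0.33). *Gbe1*, the branching enzyme, had 75.1, 70.5, 109.7 and 106 TPM in male WT and 90.6, 143, 126 and 116 TPM in male KO mice, for a log2 fold change of 0.40 (SE 0.19). *Ugp2* had 47.7, 49.8, 83.8 and 80.5 TPM in male WT and 66.9, 94.4, 99.8 and 95.9 TPM in male KO mice, for a log2 fold change of 0.47 (SE 0.22). In these 3 genes and in *Gsk3b*, each of the 5 male libraries with prefix 9 lay above each of the 3 with prefix 5 or 10, as did 10.1% of all genes tested. Prefix 5 held WT and prefix 10 KO mice only among the males. Within prefix 9, with 2 WT and 3 KO mice, KO minus WT was 0.36 for *Pygl*, 0.25 for *Gbe1* and 0.23 for *Ugp2* on the log2 scale, and -0.30 for *Gsk3b*, which had -0.06 (SE 0.19) over all male libraries.

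*Ppp1r3c*, the phosphatase-targeting subunit, had 22.5, 27.8, 33.8 and 21.7 TPM in male WT and 43.6, 34.7, 31.2 and 30.9 TPM in male KO mice, for a log2 fold change of 0.41 (SE 0.17), and 0.25 within prefix 9. The log2 fold change was 0.17 (SE 0.10) for *Gyg*, 0.20 (SE 0.16) for *Pygb*, the brain-type phosphorylase, and -0.03 (SE 0.21) for *Gys2*, all with overlapping groups. With median-of-ratios scaling these values were 0.0008, 0.03 and -0.21. Macrophage markers summed to 42, 79.8, 52.1 and 80.8 TPM in male WT and 106, 156, 120.2 and 159.7 TPM in male KO mice, so each male KO library was above each male WT library. Of the 12 markers 9 had a mean of at least 1 TPM, none was listed at 0, and *Lyz2* was the most abundant at 19.6 to 73.5 TPM. In females the sums were 62.1, 66.8, 109 and 49.4 TPM in WT and 101, 67.9, 73.9 and 91.3 TPM in KO mice. The part of macrophages in the members' values was not tested.

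The same question in female mice gave another picture. In females, 3 of the 10 members had a higher mean in KO than in WT mice and 7 a lower one, with a median log2 fold change of -0.25, beside 0.10 over all 12141 genes tested, of which 7608 were higher. Without female KO replicates 1 and 4, 4 members were higher and 6 lower, with a median of -0.07, beside 0.07 over all genes. After scaling by the median of ratios 2 were higher and 8 lower, with a median of -0.36, and with the TPM of the mitochondrial genome removed all 10 were lower, beside a median of -0.04 over all genes. *Gsk3b*, the second kinase that inhibits glycogen synthase, had 7.05, 7.89, 6.86 and 8.49 TPM in female WT and 3.18, 4.47, 4.55 and 3.85 TPM in female KO mice. Its mean was 7.57 ± 0.759 TPM (SD, n = 4) in WT mice, against 4.01 ± 0.636 TPM (SD, n = 4) in KO mice, and its log2 fold change was -0.85 (SE 0.14). Each female KO library lay below each female WT library. KO minus WT was -1.04 within prefix 10 (1 WT, 1 KO) and -0.70 within prefix 8b (3 WT, 1 KO). Without female KO replicates 1 and 4 the log2 fold change was -0.68.

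*Pygl* was the other member in which each female KO library lay below each female WT library, a pattern met by 3.19% of all genes tested. No member had each female KO library above each female WT library, as 4.89% of all genes did. *Pygl* had 247, 272, 203 and 248 TPM in female WT and 66, 163, 185 and 49.1 TPM in female KO mice, for a log2 fold change of -1.27 (SE 0.40). The values of replicates 1 and 4 lay far below those of the other KO mice, and without these libraries the log2 fold change was -0.47. *Gbe1* had 100.2, 95.8, 79.9 and 79 TPM in female WT and 35.3, 80.2, 73.6 and 34.4 TPM in female KO mice, for a log2 fold change of -0.76 (SE 0.29). The other KO mice were within or near the WT range, the groups overlapped, and without replicates 1 and 4 the value was -0.20. Within prefix 10, KO minus WT was -1.90 for *Pygl* and -1.49 for *Gbe1*, and within prefix 8b -0.37 and -0.20.

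*Pygb* had 32.8, 26.2, 36.6 and 22.1 TPM in female WT and 17.8, 36.7, 25.3 and 17.4 TPM in female KO mice. Its log2 fold change was -0.31 (SE 0.26), and without replicates 1 and 4 it turned to 0.08. *Ugp2* had 65.4, 71.4, 49.7 and 47.3 TPM in female WT and 28.3, 48, 60.2 and 47 TPM in female KO mice, for a log2 fold change of -0.37 (SE 0.24), and -0.10 without those replicates. The synthases *Gys1* and *Gys2* had log2 fold changes of -0.16 (SE 0.14) and -0.19 (SE 0.15), and -0.04 and -0.32 without those replicates. The log2 fold change was 0.13 (SE 0.15) for *Gsk3a* and 0.13 (SE 0.17) for *Gyg*, and 0.07 and 0.02 without those replicates. *Ppp1r3c* had 45.5, 35.1, 51.6 and 35.2 TPM in female WT and 23.2, 53.8, 53.8 and 44 TPM in female KO mice. Replicate 1 was far below the other KO mice, and the log2 fold change was 0.01 (SE 0.28) with all libraries and 0.38 without replicates 1 and 4. Within prefix 10 KO minus WT was -0.96, and within prefix 8b 0.42, so the direction of *Ppp1r3c* in females depended on the libraries. White adipocyte markers summed to 71.7, 164, 96.8 and 151 TPM in female WT and 87.4, 69.6, 146 and 94.1 TPM in female KO mice, and to 134, 121, 81.2 and 220.1 TPM in male WT and 151, 185, 137 and 165 TPM in male KO mice. Of these 5 markers 4 had a mean of at least 1 TPM, *Lep* was the most abundant at 1.59 to 122 TPM, and *Hoxc9* was listed at 0 in at least 1 library. *Lep* had 6.41, 67.2, 33.7 and 42.8 TPM in female WT and 2.24, 16, 29.6 and 1.59 TPM in female KO mice. *Retn*, named after its values were seen, had 43.9, 54.8, 38.5 and 45 TPM in female WT and 62.8, 39.3, 67.8 and 72.2 TPM in female KO mice. In males the mean of *Lep* was 54.9 TPM in WT and 100.7 TPM in KO mice, and that of *Retn* 26.8 and 11.9 TPM. Brown adipocyte markers summed to 10259, 7221, 9595 and 6128 TPM in female WT and 12316, 10279, 7486 and 11787 TPM in female KO mice. The part of adipocyte composition in the members' values was not tested.

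**Figure D2:**
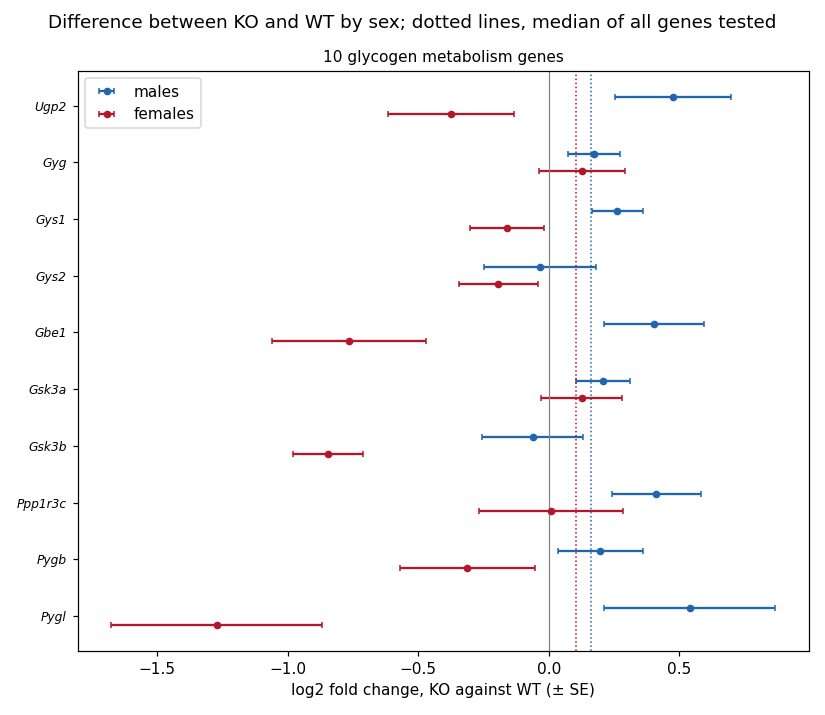
Log2 fold change on the log2(TPM + 0.5) scale (horizontal axis) of KO against WT mice, in males (blue) and females (red), for the 10 glycogen metabolism genes, with points for estimates, bars for ± SE (n = 4 per group) and dotted lines for the median of all genes tested in each sex (0.16 in males, 0.10 in females). *Pygl* and *Gbe1* had estimates above 0 in males (0.54 and 0.40) and below 0 in females (-1.27 and -0.76), also under both rescalings.

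Whether the effect depends on sex was asked by the difference of the KO effect, female minus male, which was below 0 for all 10 members, with a median of -0.47, beside -0.06 over all 12210 genes tested, of which 6968 were below 0. With median-of-ratios scaling *Gyg* turned to 0.02 and the other 9 stayed below 0. The values furthest from 0 were -1.81 (SE 0.56) for *Pygl*, -1.17 (SE 0.37) for *Gbe1*, -0.85 (SE 0.35) for *Ugp2* and -0.78 (SE 0.24) for *Gsk3b*. Without female KO replicates 1 and 4 they were -1.01, -0.60, -0.57 and -0.62, and the median over the members was -0.29, beside -0.10 over all genes. Of all genes tested with limma over the 16 libraries, 0 (0%) passed an adjusted p of 0.05 for this difference, and 1735 (14.2%) had an unadjusted p under 0.05.

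WT mice show how the sexes differ with *Gdf15* intact. Between them, 4 members were higher and 6 lower in females, with a median log2 fold change of -0.00, beside -0.05 over all 12042 genes tested, of which 4543 were higher. When scaled by the median of ratios, 6 members were higher and 4 lower. *Ppp1r3c*, the phosphatase-targeting subunit, had 45.5, 35.1, 51.6 and 35.2 TPM in female WT and 22.5, 27.8, 33.8 and 21.7 TPM in male WT mice, for a log2 fold change of 0.66 (SE 0.19). It was the single member in which each female WT library lay above each male WT library, as in 0.722% of all genes, and no member had the reverse pattern, as in 1.2% of all genes. The log2 fold change was 0.38 (SE 0.25) for *Pygl*, -0.30 (SE 0.20) for *Gys2* and -0.26 (SE 0.21) for *Pygb*, all with overlapping groups. *Gbe1* was level, at 88.7 ± 10.9 TPM (SD, n = 4) in WT females and 90.2 ± 20.3 TPM (SD, n = 4) in WT males. The WT libraries of the sexes share no prefix, so prefix and sex cannot be told apart.

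A further 23 genes of glycogen metabolism, not among the 10 members, were tested with limma in the same fits, with p-values adjusted over all genes. In males 20 of them passed the TPM minimum, all 20 had a higher mean in KO mice, beside 9725 of 12176 over all genes, with a median log2 fold change of 0.23, and 0 passed an adjusted p of 0.05, as did 1 (0.00821%) of all genes. At an unadjusted p under 0.05 there were 7, beside 2280 (18.7%) of all genes, and when scaled by the median of ratios 16 were higher, 4 lower and 1 had such a p, beside 1909 over all genes. Leaving out 1 male library at a time, the count of 7 became 1 without WT replicate 1 (1465 over all genes) or KO replicate 4 (1575), 2 without KO replicate 2 (1260) or 3 (1375), 4 without WT replicate 3 (1775), and 5 or 6 otherwise (2458 to 3014). In females 19 passed the minimum, 9 were higher and 10 lower with a median of -0.04, and 0 passed the adjusted threshold, as did 0 (0%) of all genes. Of these, 5 had an unadjusted p under 0.05, beside 2075 (17.1%) of all genes. When scaled by the median of ratios, 8 were higher and 11 lower, and 8 had such a p (2 higher, 6 lower), beside 2478 over all genes. Leaving out 1 female library at a time, the count of 5 became 2 without WT replicate 2 (1266 over all genes), KO replicate 1 (1034) or KO replicate 4 (1200), 3 without WT replicate 3 (1644), and 4 or 6 otherwise (1746 to 2702). Without female KO replicates 1 and 4 together 13 were higher and 6 lower, with a median of 0.14, and 1 had such a p, beside 459 over all genes. Between WT mice of the 2 sexes 0 of 19 passed, beside 8 (0.0664%) of all genes, and 1 had an unadjusted p under 0.05, beside 412 (3.42%). For the difference between the sexes 0 of 19 passed, and 8 had an unadjusted p under 0.05, beside 1735 (14.2%) of all genes. Without female KO replicates 1 and 4 these counts were 3, beside 767 over all genes. Below the minimum in each comparison were *Ppp1r3a*, *Ppp1r3f* and *Ppp1r3g*, and also *Nhlrc1* outside the males.

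The most abundant of these genes were *Ppp1ca*, a catalytic subunit of protein phosphatase 1 (128 TPM on average), *Pgm1*, which converts glucose 1-phosphate and glucose 6-phosphate into each other (106 TPM), and *Ppp1cb*, a second catalytic subunit (91.5 TPM). In males, *Ppp1ca*, *Ppp1cc* and *Ppp1r2*, an inhibitor of the phosphatase, had each KO library above each WT library, that is 3 of 20 genes beside 9.55% of all genes tested. When scaled by the median of ratios, the male KO and WT values of each of these 3 genes overlapped. *Ppp1r2* had 17.9, 23.2, 23 and 22.3 TPM in male WT and 24.3, 32, 29.6 and 29 TPM in male KO mice, for a log2 fold change of 0.40 (SE 0.12) with a limma adjusted p of 0.201. The log2 fold change was 0.30 (SE 0.13) for *Ppp1ca* (limma, adjusted p = 0.252) and 0.27 (SE 0.11) for *Ppp1cc* (limma, adjusted p = 0.250). In females, *Phka2* had each KO library below each WT library, as did 3.19% of all genes tested. *Phka2*, a regulatory subunit of phosphorylase kinase, had 18, 15.4, 15.9 and 17.1 TPM in female WT and 9.68, 12.5, 13.5 and 7.63 TPM in female KO mice, for a log2 fold change of -0.62 (SE 0.18) with a limma adjusted p of 0.231. In this gene, too, replicates 1 and 4 were the lowest KO libraries, as in *Pygl* and *Gbe1*. Within prefix 10, KO minus WT was -0.86 for *Phka2*, and within prefix 8b -0.25, so its size depended on the libraries.

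The muscle-type phosphorylase *Pygm*, named after its values were seen, varied more between libraries than any member, from 1.60 to 124 TPM. It had 44.1, 62.8, 8.94 and 2.97 TPM in male WT, 124, 11.6, 65.4 and 1.93 in male KO, 3.11, 34.7, 4.30 and 1.60 in female WT and 4.62, 3.85, 109 and 14.8 in female KO mice. Skeletal muscle markers (14 of 14 with a mean of at least 1 TPM) summed to 1868, 2632, 322 and 24.4 TPM in male WT, 5962, 500.0, 3200 and 14 in male KO, 2.99, 1711, 119 and 3.02 in female WT and 15.4, 7.34, 5193 and 524 in female KO mice. *Acta1*, the most abundant, ranged from 0.207 to 1237 TPM, and *Myh4*, *Tnni2* and *Pvalb* were listed at 0 in at least 1 library. The libraries with the most muscle RNA had the most *Pygm*, in both genotypes. Its part in the values of the 10 members was not tested.

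Transcripts of *Gbe1* were split by type. The coding transcript Gbe1-203 had 62.5, 65.3, 55.6 and 59.3 TPM in female WT and 15.1, 53.9, 49.4 and 17.9 TPM in female KO mice. The retained-intron transcript Gbe1-205, which is not annotated as coding, had 25.8, 6.17, 13.7 and 8.70 TPM in female WT and 19.9, 21.5, 23.3 and 15.8 TPM in female KO mice. Its share of *Gbe1* TPM was 15.1% ± 8.33 (SD, n = 4) for female WT mice and 40.2% ± 13.5 (SD, n = 4) in female KO mice, and the female groups did not overlap. By library it was 25.7, 6.45, 17.1 and 11% in female WT and 56.3, 26.8, 31.7 and 46% in female KO mice, so KO replicates 2 and 3 lay close to WT replicate 1. In males the share was 27% ± 13.1 (SD, n = 4) for WT mice and 18.9% ± 12.2 (SD, n = 4) in KO mice. The share of a second coding transcript (ENSMUST00000170464) was 15.6% ± 6.18 (SD, n = 4) for female WT mice and 1.84% ± 2.56 (SD, n = 4) for female KO mice, again without overlap. In males the share of this transcript was 7.08% ± 7.04 (SD, n = 4) for WT mice and 15.7% ± 4.39 (SD, n = 4) for KO mice, with overlap. Summing all transcripts of *Gbe1* includes this transcript. The mean of Gbe1-203 alone was 60.7 TPM in female WT and 34 TPM in female KO mice. In males it was 59.7 TPM in WT and 77.8 TPM in KO mice. How kallisto divides reads between overlapping transcripts limits these shares, and they are given as a description. Among 22 transcripts with a mean of at least 1 TPM in the 8 members that have several of them, the shares of Gbe1-205 and ENSMUST00000170464 were the 2 without overlap in females, and there were 0 in males. This pattern was not counted over the transcripts of all genes, so whether 2 of 22 is many cannot be told. *Gsk3b* had 1 transcript above that level, Gsk3b-201, with 4.93, 6.24, 5.47 and 5.15 TPM in female WT and 2.91, 4.44, 4.13 and 3.37 TPM in female KO mice. In males Gsk3b-201 had 4.31, 4.02, 6.51 and 6.39 TPM in WT and 4.81, 6.90, 6.61 and 6.32 TPM in KO mice, so it was lower in each female KO library than in each female WT library, and its male groups overlapped. A second coding transcript, Gsk3b-202, named after its values were seen, averaged 0.894 TPM. Its share of *Gsk3b* was 29.6, 20.2, 19.4 and 37.6% in female WT and 5.89, 0, 8.52 and 8.92% in female KO mice. In males the share of Gsk3b-202 was 10.9, 19.7, 10.8 and 16.9% in WT and 7.94, 2.09, 2.45 and 5.06% in KO mice, so it was lower in each KO library than in each WT library of the same sex. Gsk3b-202 lay below the minimum of 1 TPM and was not among the 22 transcripts counted above. How often other transcripts below that minimum show this pattern was not counted. The male mean of Gsk3b-201 was 5.30 TPM in WT and 6.16 TPM in KO mice, higher in KO mice where the sum over transcripts was lower. In *Gys1*, *Gyg*, *Gsk3a*, *Pygb* and *Pygl* 1 coding transcript took most of the TPM in each library, and *Ppp1r3c* had 1 transcript above 1 TPM.

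**Figure D3:**
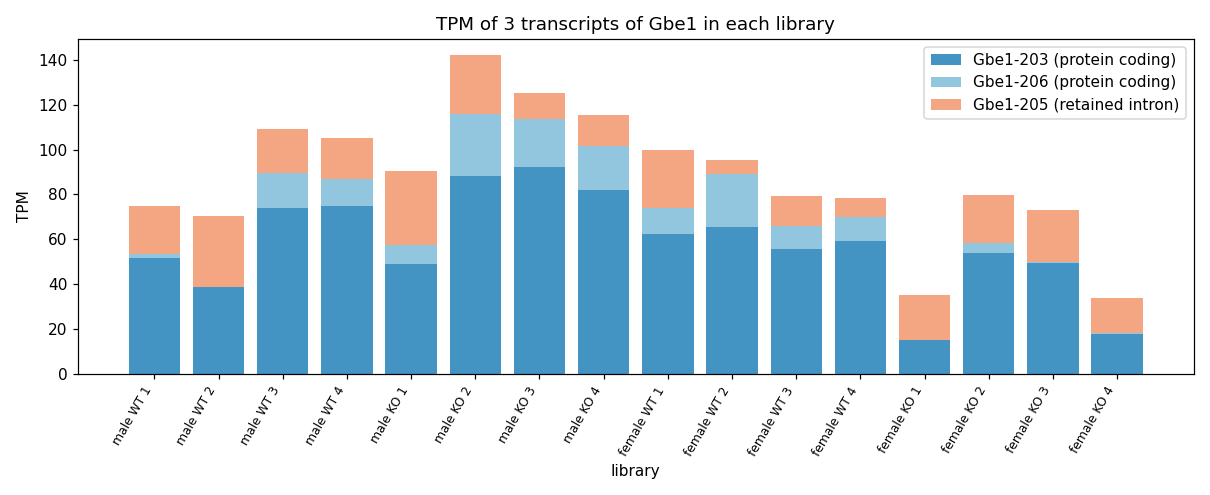
TPM (vertical axis, from 0) of 3 transcripts of *Gbe1* in each of the 16 libraries, stacked. Female KO replicates 1 and 4 had 15.1 and 17.9 TPM of the coding transcript Gbe1-203, the lowest of the 16 libraries, and 19.9 and 15.8 TPM of the retained-intron transcript Gbe1-205.

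Members varied together to different degrees over the 16 libraries, which differ in sex, genotype and prefix. Pearson's r of log2(TPM + 0.5) is given as a description. Of 45 pairs, 34 had r above 0, and the median was 0.346. *Gbe1* and *Pygl* had the highest r (0.956), followed by *Ugp2* and *Gbe1* (0.866). Without female KO replicates 1 and 4, 14 libraries remained, and these values were 0.858 and 0.926. Among 12210 genes, those with the highest r to *Pygl* were *Acly* (0.987), *Acaca* (0.984) and *Tkt* (0.984). *Acly* and *Acaca* encode enzymes of fatty acid synthesis and *Tkt* one of the pentose phosphate pathway. For *Gbe1* they were *Dlat* (0.982), *Eif4e3* (0.981) and *Stradb* (0.981), of which *Dlat* encodes a subunit of pyruvate dehydrogenase. For *Gsk3b* they were *Usp24* (0.954), *Itpr1* (0.940) and *Dmxl1* (0.940), and for *Ugp2* *Strn3* (0.972), *Golph3* (0.955) and *Mrpl50* (0.946). Genes near *Gys1* included *Ykt6* (0.943) and *Gna12* (0.934). *Gys2* was nearest to *Cep41* (0.840), *1700037H04Rik* (0.792) and *Col27a1* (0.772). *Gyg* was nearest to *Dynlt1f* (0.918), *Eif1b* (0.887) and *Fbl* (0.882), and *Gsk3a* to *Diaph1* (0.935), *Flywch1* (0.933) and *Mlf2* (0.930). *Pygb* was nearest to *Stx18* (0.952), *Cebpa* (0.947) and *Mthfd1* (0.941), of which *Cebpa* encodes a transcription factor of adipocytes. *Ppp1r3c* had the lowest values, with *E2f5* (0.745), *Taf9* (0.722) and *Thap2* (0.722).

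Promoters are shown for *Pygl* and *Gbe1*, the pair with the highest correlation over all 16 libraries. One is also shown for *Gsk3b*, with the lower values in each female KO library. The sequences are from RefSeq, and 9 of the 10 members matched, all but *Gys2*. They were searched on both strands for CCAAT (in 37.4% of 32851 promoters of the same length), GGGCGG (35.7%), CACGTG (7.15%) and TATAAA (13.6%). Capitals mark CCAAT and GGGCGG or their reverse complements. *Pygl* held 4 and *Gbe1* 1 matches to GGGCGG and neither held CCAAT, whereas *Gsk3b* held 4 matches to CCAAT, 1 to TATAAA and 0 to GGGCGG. A match is a run of letters in this window and not a shown binding site.
Pygl, GRCm38.p6 chr12:70227634-70227933, minus strand: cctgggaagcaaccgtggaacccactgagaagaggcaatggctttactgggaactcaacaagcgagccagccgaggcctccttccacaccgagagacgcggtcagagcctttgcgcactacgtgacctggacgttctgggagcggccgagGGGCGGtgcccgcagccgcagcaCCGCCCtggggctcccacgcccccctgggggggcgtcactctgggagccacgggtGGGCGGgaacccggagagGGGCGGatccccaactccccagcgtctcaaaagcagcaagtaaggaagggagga
Gbe1, GRCm38.p6 chr16:70313699-70313998, plus strand: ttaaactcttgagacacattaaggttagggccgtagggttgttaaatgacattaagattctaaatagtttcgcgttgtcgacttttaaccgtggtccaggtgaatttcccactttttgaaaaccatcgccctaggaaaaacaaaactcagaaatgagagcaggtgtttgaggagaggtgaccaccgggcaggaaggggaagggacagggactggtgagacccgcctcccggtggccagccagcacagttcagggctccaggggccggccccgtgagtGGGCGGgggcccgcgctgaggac
Gsk3b, GRCm38.p6 chr16:38088751-38089050, plus strand: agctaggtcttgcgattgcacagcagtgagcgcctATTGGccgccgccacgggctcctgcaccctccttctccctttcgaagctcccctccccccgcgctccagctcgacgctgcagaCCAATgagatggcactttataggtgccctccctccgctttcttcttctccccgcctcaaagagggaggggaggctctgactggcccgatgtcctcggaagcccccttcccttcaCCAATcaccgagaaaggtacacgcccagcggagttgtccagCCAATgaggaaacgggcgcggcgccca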

How the data were processed

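BAT libraries of 16 mice were prepared with a stranded mRNA kit and sequenced from a single end. The authors quantified the reads with kallisto 0.46.2 on GRCm39 transcripts and deposited TPM for each transcript, scaled to 1000000 per library, with no counts, so the depth per library is unknown. Of 137438 transcript identifiers, 135051 matched GENCODE mouse release 21 without their version number. TPM was summed per gene identifier, for 49130 genes. Where several identifiers shared a symbol, the identifier with the highest mean TPM was kept, which left 49066 symbols. Genes with a mean of at least 1 TPM in the libraries of a comparison were tested on log2(TPM + 0.5) with limma 3.58.1 in R 4.3.3 (empirical Bayes with a trend), two-sided, with Benjamini-Hochberg adjustment over all genes and a threshold of 0.05. Groups were those of the labels, and 4 contrasts were fitted: KO against WT in each sex, female WT against male WT, and how far the KO effect differs by sex. Named were all 10 members, *Gdf15*, and, of 23 other glycogen genes, those past the threshold, those whose KO and WT values did not overlap within a sex, and the 3 most abundant. Also named were, for each member, the 3 genes with the highest Pearson correlation and, of each marker list, its most abundant gene and its genes at 0. Some genes that met these rules are not reported here. The members and lists were chosen with earlier results of these data known. Alternatives were other pseudocounts, other TPM minimums, rescaling of the libraries, a replicate block, the library prefix as a covariate, all 16 libraries in 1 fit, no trend and leaving out libraries.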

Additional observations from a re-analysis of the deposited data

Results flagged for a closer look

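Within groups of 4 libraries, single values were set apart when their gap to the nearest other value took up an unusually large part of the group's range. This happened for 11 values from 140 groups, and chance gives about 1 in 20 groups if values are normally distributed, which TPM in groups of 4 with several zeros need not be. Among the members, *Ugp2* in male KO replicate 1 was below the other male KO mice at 66.9 TPM. The muscle phosphorylase *Pygm* was far above the other female WT mice in replicate 2, at 34.7 TPM, and far above the other female KO mice in replicate 3, at 109 TPM. The skeletal muscle marker sum stood apart in the same libraries, at 1711 TPM in female WT replicate 2 and 5193 TPM in female KO replicate 3. Female WT replicate 2 also stood apart in *Phkg1*, the muscle subunit of phosphorylase kinase, at 4.55 TPM and in *Stbd1*, a glycogen-binding protein, at 3.14 TPM. *Ppp1ca* in female KO replicate 3 was below the other female KO mice at 114 TPM. *Gdf15* in female KO replicate 3 was at 0.0794 TPM while the other female KO mice were listed at 0. The hepatocyte marker sum was 32.8 TPM in male WT replicate 1 and 24.9 TPM in female WT replicate 1, above the rest of each group. Outside the genes compared, 17.7% of the TPM of female WT replicate 4 lay on transcripts without a match in the annotation, above the 0.333 to 0.480% of the other 15 libraries.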

How the results depend on the processing

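The count of the other glycogen genes past the adjusted threshold in limma was 0 in each comparison under each alternative that could be fitted. Prefix as a covariate could not be fitted for female WT against male WT, whose libraries share no prefix. The added settings, without female KO replicates 1 and 4 and with the male libraries of prefix 9 alone, were chosen after seeing the data. Among all genes in males the count past the threshold was 1. It was 2 with a pseudocount of 0.1, 0 with no TPM minimum, 7 with median-of-ratios scaling (5 higher, 2 lower), 12 with the mitochondrial genome removed (10 higher, 2 lower), 0 with a replicate block, 6 with the prefix as a covariate (3 higher, 3 lower), 40 with all 16 libraries in 1 fit (40 higher, 0 lower) and 9 within prefix 9. Leaving out 1 male library at a time gave 0 to 5, with 0 without WT replicate 1, WT replicate 3 or KO replicate 3 and 5 without WT replicate 4 or KO replicate 1. In females the count was 0, with 2075 at an unadjusted p under 0.05, or 1266 without WT replicate 2, 1034 without KO replicate 1, 1200 without KO replicate 4 and 459 without KO replicates 1 and 4 together. It was 1 with a replicate block, 8 with the prefix as a covariate, 5 with all 16 libraries in 1 fit and 1 without KO replicates 1 and 4. Leaving out 1 female library gave 0 to 9, with 1 without WT replicate 2, 3 without WT replicate 4, 2 without KO replicate 1 and 9 without KO replicate 2. Between WT mice of the sexes the count was 8. It was 3 with a minimum of 5 TPM, where fewer genes were tested, 7 with a replicate block, and 5 to 11 with 1 library left out (5 without female WT replicate 2 or 3). For the difference between the sexes it was 0, with 1735 at an unadjusted p under 0.05. It was 1 with no trend, 0 with a replicate block, and 0 to 3 with 1 library left out (3 without male KO replicate 1, 1 without female WT replicate 4). The cause of these differences was not tested. Replicate numbers were not treated as pairs of mice, except in the replicate block. The r between WT and KO libraries of the same number was -0.0853 to 0.351 in males and -0.109 to 0.145 in females. In male replicate 4 (r 0.351) and female replicate 1 (r 0.145) the WT and KO libraries were each other's closest match. These libraries also shared a prefix, 9 and 10. Among the members, *Pygl* had log2 fold changes of 0.36 to 0.80 in males and -1.57 to -0.47 in females over all alternatives, *Gbe1* 0.23 to 0.53 and -0.97 to -0.20, and *Gsk3b* -1.03 to -0.68 in females. The sign turned under at least 1 alternative for *Gsk3b* and *Gys2* in males and for *Gsk3a*, *Gyg*, *Ppp1r3c* and *Pygb* in females. It also turned for *Gyg* in the difference between the sexes and for *Gbe1*, *Gsk3a* and *Gyg* between WT mice. Counting only transcripts with a mean of at least 0.1 TPM, Gbe1-205 held 15.1% of *Gbe1* in female WT and 40.2% in female KO mice. Without counts, precision at low TPM could not be assessed.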
